A study of Mus musculus with 9 samples.

Results

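Cdk5, the genes of its activators and binding proteins, and the calpain system were followed in neuronal nuclei of the mouse cortex. The set is defined by gene name, with no threshold on a measured value: Cdk5, Cdk5r1, Cdk5r2, Cdk5rap2, Cdk5rap3, Cables1, Capn1, Capn2 and Cast, which are 9 of the 55401 genes in the count tables. Cortical nuclei were sorted for NeuN, which marks neurons, in animals aged 7 to 9 months, and their total RNA was sequenced in 9 libraries. There were 3 wild-type libraries without treatment, 3 from P301S tau transgenic mice given a scrambled peptide and 3 from P301S tau transgenic mice given the Cdk5i peptide, a peptide inhibitor of Cdk5. Both peptides were injected into the abdomen every second day at 20 mg per kg. P301S is a mutation of human tau that causes inherited frontotemporal dementia. The labels name neither the transgenic line nor the promoter of its transgene, and wild-type mice received no injection, so genotype and injection cannot be told apart in any comparison with wild type. The labels do not tie each library to an animal of its own; the p-values then reflect how far these libraries scatter, and that scatter may be technical.

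Cdk5 is a kinase of the cyclin-dependent family that works mainly in neurons after they have stopped dividing, and it is switched on by p35 or p39 rather than by a cyclin. Calpains, proteases that are activated by calcium, cut p35 to the shorter and longer-lived p25, and Cdk5 bound to p25 phosphorylates tau. Calpastatin blocks the calpains. All of this control acts on proteins, which were not measured here, so the values below are RNA levels of the genes and say nothing of kinase or protease activity.

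Libraries held 21584712 to 26715938 counts, and replicates of a group had Spearman correlations of at least 0.990. All 5 general neuronal markers were read, with a summed level of 5717 to 6761 CPM (counts scaled to a common library total) over the 9 libraries. The 8 inhibitory neuron markers summed to 1008 to 1175 CPM in wild-type libraries, 889 to 977 CPM in scrambled and 1059 to 1202 CPM in Cdk5i libraries, so the scrambled group lay below both others without overlap. Of 16046 genes taken singly, 8.03% were lower without overlap in scrambled than in wild type. In Cdk5i, 4.95% were higher without overlap than in scrambled. The 8 excitatory markers summed to 1056 to 1401 CPM, with the Cdk5i range spanning those of the other groups. The part of the mix of neurons in the values below was not tested. Markers of other cells were present at lower sums: 357 to 555 CPM for 9 astrocyte genes, 77.7 to 127 CPM for 11 oligodendrocyte genes, 53.7 to 160 CPM for 10 microglial genes (Itgam at 0) and 10.8 to 16.8 CPM for 10 endothelial and mural genes. Such sums do not give shares of cells. In RNA from many nuclei, fewer cells of a type and less RNA per cell cannot be told apart.

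Cdk5r2, the gene of the activator p39, had 0 counts in 9 of 9 libraries, and the annotation used for counting leaves no base of it that could be counted. The gene (ENSMUSG00000090071) is a single exon of 2799 bases on the plus strand at chr1:74854934-74857732 (GRCm38). All of these bases lie inside Gm16582 (ENSMUSG00000089964, chr1:74850895-74879953), a non-coding gene model on the same strand. In GENCODE M21, on the same build, Cdk5r2 sits in the intron between exon 2 and exon 3 of Gm16582, and the exons of both genes share 0 bases. The tables count fragments over whole gene spans, and a fragment that lies wholly in 2 genes on the same strand is left out. Cdk5r2 fragments therefore could not be counted for Cdk5r2, and the 0 sets no upper limit on the RNA of p39.

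**Figure D1:**
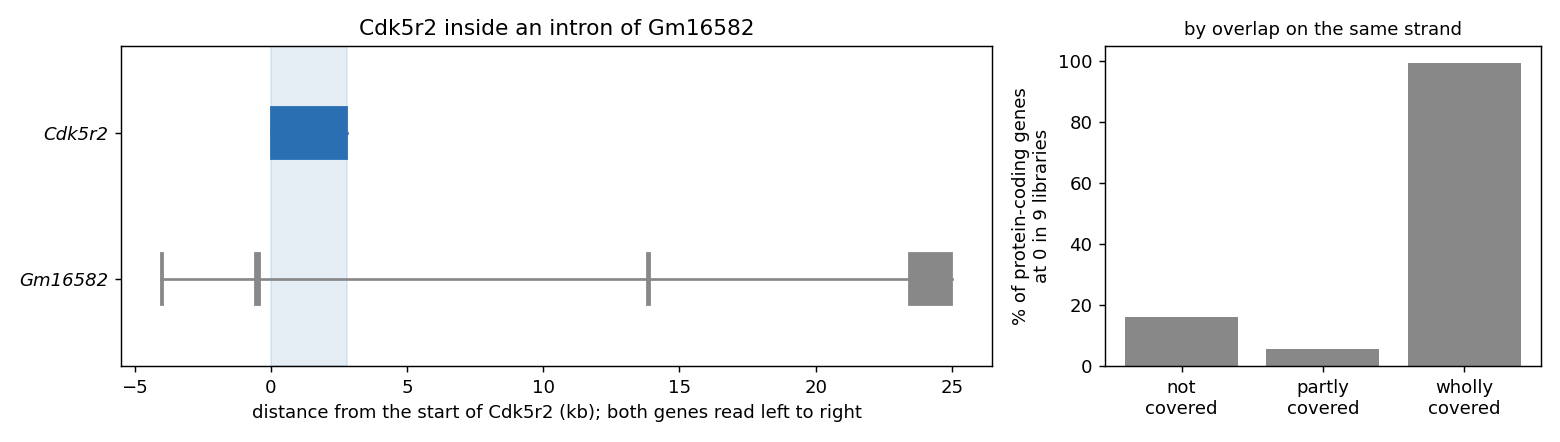
Left, exons (boxes) and introns (lines) of Cdk5r2 and Gm16582 against the distance in kb from the start of Cdk5r2, both read left to right, with the span of Cdk5r2 shaded. Right, the percentage of protein-coding genes at 0 in 9 libraries by how much of the span other genes on the same strand cover: 16.0% where nothing is covered, 5.67% where part is covered and 99.6% where all is covered.

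The same held for nearly every gene in that position. Of 455 protein-coding genes wholly covered by other genes on their strand, 453 (99.6%) were at 0 in all 9 libraries, against 2803 of 17526 (16.0%) of those with no such overlap. The calpain family has further cases, noted after their values were seen. Capns2, a second small calpain subunit gene, had 0 counts inside Lpcat2, which covers 100% of its span. Capn3, the muscle calpain gene, had 5 counts over the 9 libraries, and 99.6% of its span is covered on the same strand by the model ENSMUSG00000118623. Within the set, the other models nested on the same strand were Ywhaq-ps3 in Cdk5rap2, AC100751.1 in Cables1 and Gm6296 in Cast, each with 0 counts. They took 0.381, 2.61 and 0.810% of the spans of their hosts, so little of those genes was lost.

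Gm16582 itself had 74 to 120 counts per library. The counts do not show where in its span these fragments lie, and pairs that reach past an end of Cdk5r2 may be among them. Its wild-type mean was 3.91 ± 0.287 CPM, against 3.49 ± 0.557 for the scrambled and 3.75 ± 0.798 for the Cdk5i group (SD, n = 3). None of these groups was separate from the others, and edgeR adjusted p values were 0.809 to 0.980 in the 3 comparisons. These counts were assigned to the non-coding model and were not taken as a stand-in for Cdk5r2.

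No read of 40 bases could match the coding sequences of both activators exactly, so the p35 gene holds no exact reads of p39. Over 913 aligned coding bases Cdk5r1 and Cdk5r2 were 69.7% identical, and the longest stretch they share was 23 bases. That stretch is shown in capitals within the coding strand, 5′ to 3′, of the GENCODE M21 transcripts (GRCm38), at chr11:80478196-80478278 for Cdk5r1 and chr1:74855893-74855975 for Cdk5r2, both on the plus strand:
Cdk5r1: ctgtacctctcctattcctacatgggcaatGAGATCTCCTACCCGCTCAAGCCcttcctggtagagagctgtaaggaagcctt
Cdk5r2: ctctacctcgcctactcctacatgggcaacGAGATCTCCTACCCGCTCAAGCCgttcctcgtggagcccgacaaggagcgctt
Counting used strand, so models on the opposite strand, which overlap 0.716 to 24.7% of the spans of 5 members, take no part in it. Of the 40-base words in the longest transcript of Cdk5, Cdk5r1 and Cdk5r2, 0 occurred in a transcript of another gene on either strand. For other members some did: 38.0% for Cables1 (in Gm6277 and Mir1901, both on the opposite strand), 21.8% for Cast (in Erap1 on the opposite strand, AC166748.1 and AC122119.1), 5.32% for Capn1, 5.12% for Capn2, 3.39% for Cdk5rap3 and 0.110% for Cdk5rap2. The calpain genes Capn1 and Capn2 were 66.7% identical over 2088 aligned coding bases, with a longest shared stretch of 17 bases, so no exact 40-base read fits both coding sequences.

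The 8 members with counts differed widely in level per length. Levels between genes are given as CPM per kb of gene span, which counts introns as well as exons. Cdk5r1 (chr11:80477023-80481184, a span of 4.16 kb, each base exonic in at least 1 of its 2 transcripts) had the highest mean, 4.49 ± 0.261 CPM per kb (SD, n = 9). It was followed by Cdk5 (chr5:24418241-24423530, 5.29 kb, 41.0% exonic) with 3.26 ± 0.433 CPM per kb (SD, n = 9). These lay at the 97.3 and 95.5 percentile of the 16046 genes tested, whose median was 0.548 CPM per kb. Cdk5r1 was above Cdk5 in 9 of 9 libraries, though their ranges over the libraries overlapped.

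The next 3 genes lay near the median of all tested genes and could not be ordered. Cables1 (chr18:11839220-11945630) measured 0.648 ± 0.0482, Cdk5rap3 (chr11:96907426-96916496) 0.619 ± 0.0820 and Capn2 (chr1:182467260-182517608) 0.588 ± 0.0415 CPM per kb (SD, n = 9), with overlapping ranges. Cdk5rap2 (chr4:70216856-70410443) and Capn1 (chr19:5988545-6015897) were lower, at 0.281 ± 0.0186 and 0.265 ± 0.0291 CPM per kb (SD, n = 9), and overlapped each other. Cast (chr13:74692368-74808810) was lowest at 0.0693 ± 0.00800 CPM per kb (SD, n = 9), the 16.0 percentile, and its range stayed below that of Capn1. Between genes this scale depends on how much of a span is exon. That share was 3.61% for Cables1, 6.72% for Cdk5rap2, 9.85% for Cast, 12.2% for Capn1, 12.6% for Capn2 and 42.0% for Cdk5rap3.

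**Figure D2:**
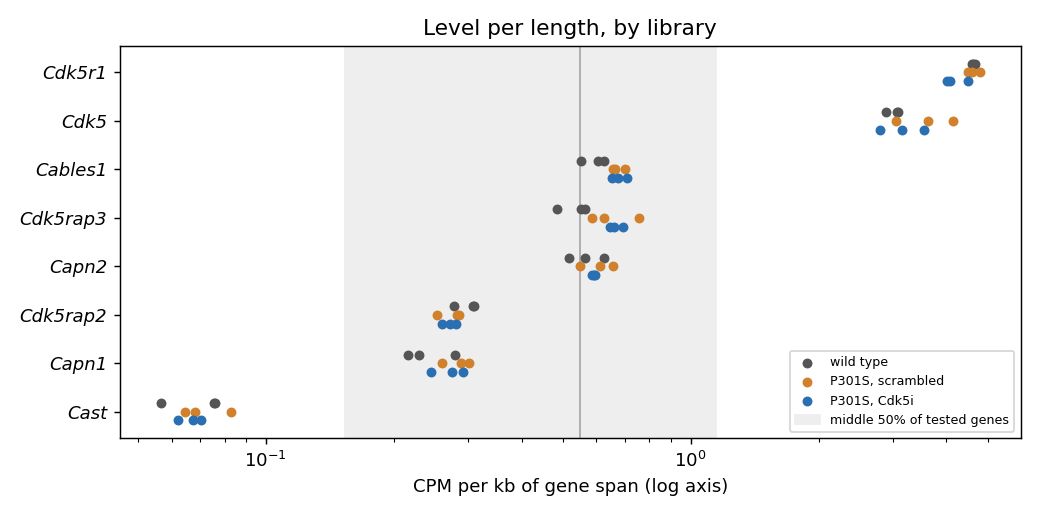
Level of each of the 8 genes with counts in CPM per kb of gene span (log axis), 1 point per library, coloured by group; the grey band holds the middle 50% of tested genes (0.154 to 1.15) and the line their median of 0.548. Cdk5r1 and Cdk5 stand above the band in every library and Cast below it.

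The first comparison asked how these genes differed between P301S mice given scrambled peptide and untreated wild-type mice. None of the 8 members passed the edgeR quasi-likelihood test over all 16046 genes at an adjusted p of 0.05, where 13 genes (0.081%) did. With DESeq2, limma voom or edgeR under other settings the number of members was also 0. Without adjustment 3 members had an edgeR p under 0.05, Cdk5, Cdk5rap3 and Cables1, each with a positive fold change. Of all tested genes 10.1% had such a p in either direction and 4.86% with a positive change. Positive fold changes were found for 6 of 8 members and 51.7% of all tested genes. Cdk5 and Cdk5rap3 have spans under 10 kb. Over the 3899 tested genes with such a span the median log2 fold change was 0.04, against 0.01 over all tested genes. Of these short genes 169 had an unadjusted edgeR p under 0.05 with a positive change and 90 with a negative one. The part of gene length was not tested.

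Cdk5 stood at 16.3, 15.3 and 16.2 CPM in wild-type replicates 1 to 3 and at 19.1, 22.0 and 16.1 CPM in the scrambled replicates. Scrambled replicate 2 was the highest of the 9 libraries, while replicate 3 lay among the wild-type values, so the groups overlapped. The means were 15.9 ± 0.554 and 19.1 ± 2.92 CPM (SD, n = 3). The log2 fold change was 0.26, its 95% interval 0.0088 to 0.52 and its edgeR adjusted p 0.477. Without scrambled replicate 2 the log2 fold change was 0.15.

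Cdk5r1, the p35 gene, was closest to no difference. Its wild-type libraries held 19.2, 19.5 and 19.2 CPM and those with scrambled peptide 18.7, 19.9 and 19.1 CPM. The log2 fold change was -0.0036 with an interval of -0.17 to 0.17 (edgeR adjusted p = 0.992), which as a fold runs from 0.887 to 1.12. The ratio of Cdk5r1 to Cdk5 within a library, per kb, does not depend on scaling. It was 1.497, 1.622 and 1.510 in wild type and 1.243, 1.152 and 1.502 with scrambled peptide, where replicates 1 and 2 were the lowest and replicate 3 lay among the controls. That made a log2 difference of -0.26 (exact two-sided permutation p = 0.2, where 3 against 3 cannot go below 0.1).

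Among the binding proteins, Cables1 and Cdk5rap3 were higher in each transgenic library than in any wild-type library. Cables1 encodes an adaptor that links Cdk5 to the Abl kinase. Its wild-type libraries held 58.8, 66.4 and 64.5 CPM, the scrambled ones 74.5, 70.5 and 69.8 CPM and the Cdk5i ones 75.3, 71.7 and 69.5 CPM. The log2 fold change of scrambled peptide against wild type was 0.18 with an interval of 0.041 to 0.32 (edgeR adjusted p = 0.384). Groups that do not overlap were found for 2 of 8 members and 16.3% of all tested genes. By direction, 8.26% of tested genes were higher in this way and 8.03% lower.

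Cdk5rap3 encodes a protein first found through its binding to p35 and now known from the attachment of the ubiquitin-like modifier UFM1. It had 94 to 178 counts per library, which came to 5.12, 4.40 and 4.99 CPM for wild type and to 6.86, 5.66 and 5.31 CPM for the scrambled group. The lowest of the latter was close to the highest wild-type value, and the log2 fold change was 0.30 with an interval of 0.00088 to 0.60 (edgeR adjusted p = 0.495). Without scrambled replicate 1, the highest library, it was 0.18. Cdk5rap2, a centrosome protein gene linked to microcephaly, had 59.7, 53.6 and 59.4 CPM in the wild-type libraries against 55.3, 48.9 and 54.6 CPM. Its log2 fold change was -0.12 (edgeR adjusted p = 0.590), or -0.069 without scrambled replicate 2, and the groups overlapped.

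The proteases and their inhibitor did not pass either. Capn1, the catalytic subunit of µ-calpain, had wild-type values of 5.93, 7.63 and 6.27 CPM and scrambled values of 7.09, 8.21 and 7.89 CPM, 0.23 apart on the log2 scale (edgeR adjusted p = 0.596). Capn2, the catalytic subunit of m-calpain, had 26.0, 31.5 and 28.3 CPM against 30.7, 33.0 and 27.7 CPM, 0.09 apart on that scale (edgeR adjusted p = 0.765). Cast, the calpastatin gene, had 6.59, 8.80 and 8.85 CPM against 7.94, 9.66 and 7.50 CPM, 0.05 apart (edgeR adjusted p = 0.937). All 3 overlapped between the groups. Leaving out a library, Capn1 ranged from 0.15 to 0.34 (highest without wild-type replicate 2) and Capn2 from 0.026 (without wild-type replicate 1) to 0.17 (without wild-type replicate 2). The ratio of Cast to Capn1 plus Capn2, per kb, was 0.0772, 0.0835 and 0.0960 in wild type and 0.0784, 0.0868 and 0.0768 with scrambled peptide (log2 difference -0.08, exact two-sided permutation p = 0.6).

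**Figure D3:**
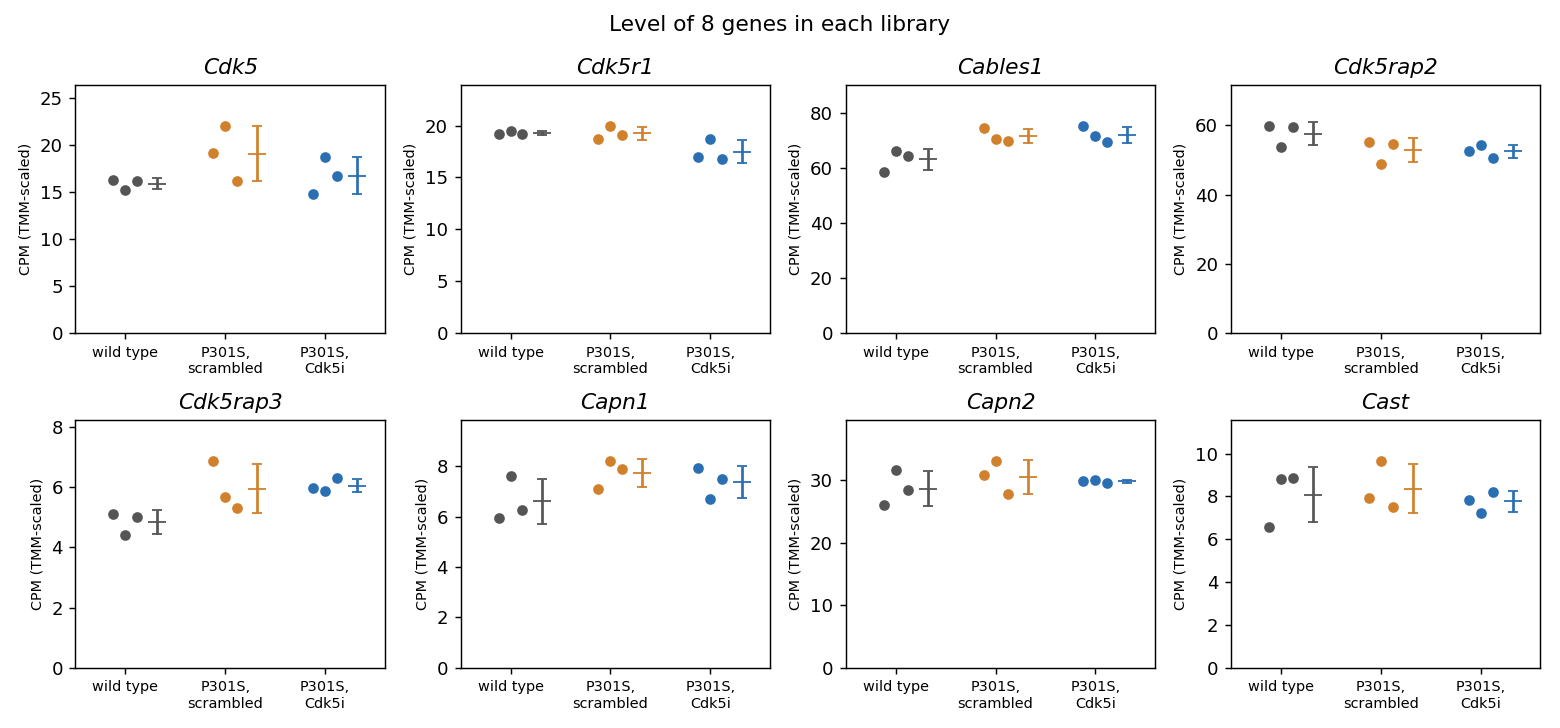
CPM (TMM-scaled) of each of the 8 genes in every library, in replicate order within a group, with the group mean and SD (n = 3) beside the points; each axis starts at 0. Cables1 and Cdk5rap3 are the genes whose 6 transgenic libraries all lie above the 3 wild-type ones.

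The second comparison, Cdk5i against scrambled peptide, asked whether the inhibitor of the kinase went along with other RNA levels of the kinase, its activator or the calpains, with both groups transgenic and injected. None of the 8 members passed the edgeR test, where 2 of 16046 genes (0.0125%) did, and 0 had an unadjusted p under 0.05, against 5.33% of all tested genes. DESeq2 and limma voom called 0 members as well. No member had groups that did not overlap, and 10.3% of tested genes did, 4.95% higher and 5.38% lower. With 8 members, a count of 0 is close to those shares. Positive fold changes were found for 2 of 8 members, against 47.2% of tested genes, and 2.87% of tested genes had a positive change with an unadjusted p under 0.05. The 95% intervals of the 8 genes, taken singly, lay between 0.738-fold and 1.24-fold.

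Cdk5 measured 14.8, 18.7 and 16.7 CPM with Cdk5i, a mean of 16.7 ± 1.99 CPM (SD, n = 3). Replicate 1 lay below the scrambled libraries and the other replicates among them. The log2 fold change was -0.19 with an interval of -0.44 to 0.06 and an edgeR adjusted p of 0.951. Without scrambled replicate 2, in which Cdk5 was highest, it was -0.07. Cdk5r1 had 17.01, 18.75 and 16.73 CPM with Cdk5i, where replicate 2 lay just above the lowest scrambled library (18.70 CPM). Its log2 fold change was -0.14 with an interval of -0.30 to 0.03 (edgeR adjusted p = 0.945). The Cdk5r1 to Cdk5 ratio was 1.463, 1.271 and 1.277 with Cdk5i and overlapped that with scrambled peptide (log2 difference 0.05, exact two-sided permutation p = 0.7, smallest possible 0.1). Cdk5, Cdk5r1 and Cdk5rap3 (log2 fold change 0.02) have spans under 10 kb. The median log2 fold change over the 3899 tested genes with such a span was -0.08 in this comparison, against -0.01 over all tested genes. The part of gene length in the values of these genes was not tested.

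Binding proteins and calpains were closer still to no difference. The log2 fold changes were 0.01 for Cables1, 0.02 for Cdk5rap3 and -0.01 for Cdk5rap2. They were -0.07 for Capn1 (7.95, 6.71 and 7.49 CPM with Cdk5i), -0.03 for Capn2 (29.8, 29.9 and 29.6 CPM) and -0.10 for Cast (7.86, 7.24 and 8.21 CPM). In edgeR the adjusted p of each of these 6 genes lay between 0.970 and 0.996. For the ratio of Cast to the calpain genes the exact two-sided permutation p was 0.5 (log2 difference -0.06).

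**Figure D4:**
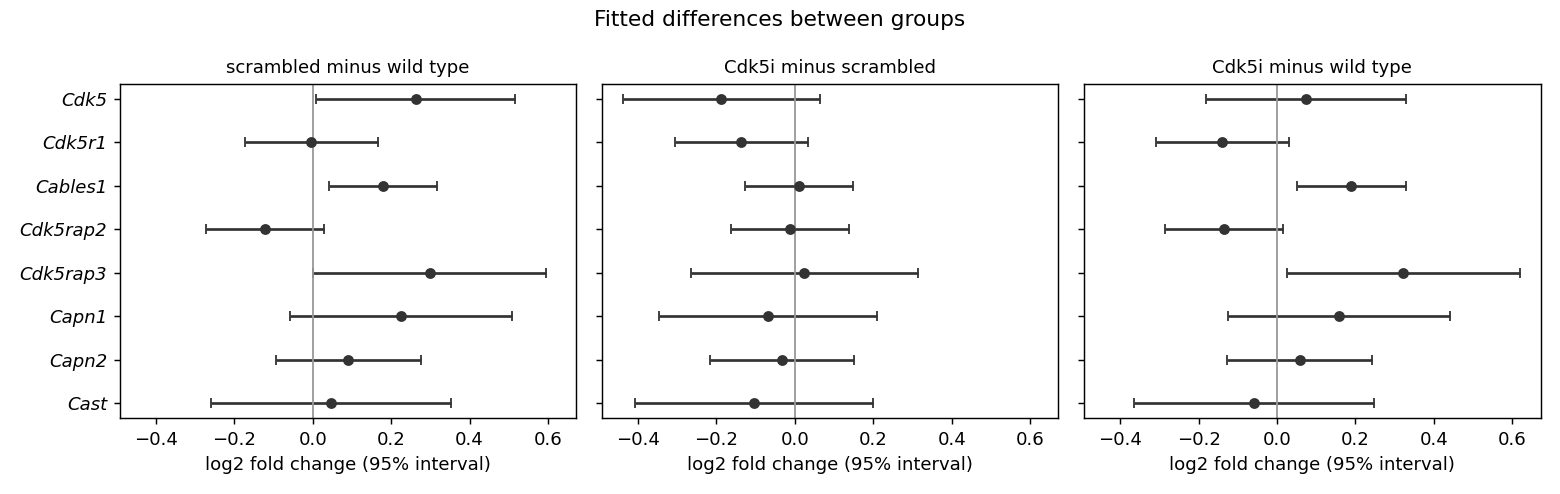
Fitted log2 fold change (points) and 95% interval (bars) of the 8 genes in the 3 comparisons, on the same horizontal axis. The intervals of Cdk5, Cables1 and Cdk5rap3 exclude 0 for scrambled peptide against wild type and those of Cables1 and Cdk5rap3 for Cdk5i against wild type, before any adjustment for the 16046 genes tested.

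The third comparison set Cdk5i against wild type. It shares its libraries with the other comparisons, so the values below are not independent of them. No member passed in edgeR, where 12 genes (0.0748%) did, and DESeq2 and limma voom also called 0. Without adjustment Cables1 and Cdk5rap3 had an edgeR p under 0.05, as did 11.0% of all tested genes, 5.73% with a positive change. Groups did not overlap for 3 of 8 members and 16.3% of tested genes, higher for 8.03% and lower for 8.22%. Fold changes were positive for 5 of 8 members and 48.8% of tested genes. Cables1 had a log2 fold change of 0.19 (interval 0.051 to 0.33, edgeR adjusted p = 0.324), its group means being 63.2 ± 3.95 and 72.1 ± 2.91 CPM (SD, n = 3). Cdk5rap3 rested on 5.98, 5.87 and 6.30 CPM with Cdk5i, a log2 fold change of 0.32 (interval 0.025 to 0.62, edgeR adjusted p = 0.416).

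Cdk5r1 was lower in each Cdk5i library than in any wild-type library, with means of 17.5 ± 1.09 and 19.3 ± 0.169 CPM (SD, n = 3). The log2 fold change was -0.14 with an interval of -0.31 to 0.03 (edgeR adjusted p = 0.548). Over the 3899 tested genes with a span under 10 kb, which include Cdk5r1, the median log2 fold change was -0.04, against -0.01 over all tested genes. Of these short genes 83 had an unadjusted edgeR p under 0.05 with a positive change and 164 with a negative one. The part of gene length was not tested. The Cdk5r1 to Cdk5 ratio was below the wild-type values in 3 of 3 libraries, a log2 difference of -0.21 at the smallest p that 3 against 3 allows (exact two-sided permutation p = 0.1). Cdk5 itself had a log2 fold change of 0.07, Cdk5rap2 -0.13, Capn1 0.16, Capn2 0.06 and Cast -0.06. Their edgeR adjusted p values were 0.507 to 0.916. The Cast to calpain ratio had a log2 difference of -0.14 (exact two-sided permutation p = 0.2), which was -0.054 without wild-type replicate 3 and -0.21 without wild-type replicate 1.

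Because Cables1 and Cdk5rap3 were placed alike in both transgenic groups, these were also pooled against wild type, a choice made after the values were seen. Both were higher in 6 of 6 transgenic libraries than in any wild-type library, and groups without overlap were found for 2 of 8 members. Of all tested genes 6.5% had such groups, 3.22% higher and 3.28% lower. Unadjusted p values under 0.05 were found for 2 of 8 members and 12.2% of tested genes, or 6.1% with a positive change. Fold changes were positive for 5 of 8 members and 50.3% of tested genes. The pooled log2 fold change was 0.18 for Cables1 (interval 0.064 to 0.31, edgeR adjusted p = 0.243) and 0.31 for Cdk5rap3 (interval 0.049 to 0.57, edgeR adjusted p = 0.328). None of the 8 members passed, and 13 genes (0.081%) did. The 11 oligodendrocyte markers summed to 77.7 to 87.7 CPM over the wild-type libraries, 87.3 to 115 CPM over the scrambled ones and 82.3 to 127 CPM over the Cdk5i ones. Astrocyte markers summed to 473 to 555, 406 to 522 and 357 to 524 CPM in the same order. The part of these cells in the levels of Cables1 and Cdk5rap3 was not tested.

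Other genes of the pathway were taken by list, and in no comparison did a listed gene pass the edgeR test over all genes. Of 13 other calpain family genes, 7 had enough counts to be tested, with median log2 fold changes of 0.05, -0.02 and 0.02 in the order of the comparisons, against 0.01, -0.01 and -0.01 over all tested genes. The most abundant per kb were Capn7 (53.0 ± 1.83, 53.7 ± 1.98 and 53.0 ± 2.43 CPM in wild type, scrambled and Cdk5i, SD, n = 3), Capn15 (39.1 ± 1.90, 41.5 ± 4.68 and 43.0 ± 0.799 CPM) and Capn10 (12.2 ± 0.613, 13.5 ± 1.06 and 12.4 ± 1.32 CPM). Each of these, at 0.936 to 1.51 CPM per kb, was denser in reads than Capn1 and Capn2. No calpain gene of the list had an unadjusted edgeR p under 0.05, against 10.1, 5.33 and 11.0% of all tested genes. With 7 genes tested, a count of 0 is close to those shares.

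All 17 other Cdk5 partners, modifiers and related kinases were tested, with median log2 fold changes of 0.05, 0.01 and -0.02. Of these 0, 1 and 1 had an unadjusted edgeR p under 0.05, against 10.1, 5.33 and 11.0% of all tested genes. The related kinases Cdk16 (28.0 ± 0.849, 29.5 ± 1.01 and 30.4 ± 2.90 CPM) and Cdk17 (235 ± 16.2, 245 ± 16.7 and 250.4 ± 21.1 CPM, SD, n = 3) had log2 fold changes of 0.03 to 0.12. Egr1, an activity-induced factor known to drive Cdk5r1, varied too much between libraries to compare, at 15.7 ± 7.67, 16.8 ± 8.10 and 14.7 ± 10.7 CPM (SD, n = 3). Abl2, a tyrosine kinase of the Abl family, had the lowest adjusted p of the list and was chosen for that after its values were seen. It measured 84.6 ± 5.85, 98.3 ± 0.953 and 126 ± 22.5 CPM (SD, n = 3), with a log2 fold change of 0.57 for Cdk5i against wild type (edgeR adjusted p = 0.121) and 0.35 for Cdk5i against scrambled peptide (edgeR adjusted p = 0.768).

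Of 40 Cdk5 substrate genes 38 were tested, and of these 23, 27 and 23 had positive fold changes in the 3 comparisons, with medians of 0.03 each time; over all tested genes 51.7, 47.2 and 48.8% were positive. An unadjusted edgeR p under 0.05 was found for 5, 0 and 4 of the 38, against 10.1, 5.33 and 11.0% of all tested genes. Dnm1, a dynamin of synaptic vesicle uptake, measured 297 ± 10.4, 325 ± 14.4 and 315 ± 23.1 CPM (SD, n = 3), and Map1b, a microtubule protein gene, 502 ± 33.3, 529 ± 19.6 and 512 ± 20.5 CPM. Grin2b, a glutamate receptor subunit gene on both substrate lists, had 2624 ± 128, 2194 ± 185 and 2518 ± 259 CPM (SD, n = 3) and a log2 fold change of -0.26 for scrambled peptide against wild type (edgeR adjusted p = 0.389). All 28 calpain substrate genes were tested, with medians of -0.01, 0.04 and 0.04. Of them 6, 2 and 6 had an unadjusted edgeR p under 0.05, against 10.1, 5.33 and 11.0% of all tested genes. The calpain substrate list holds the member Cdk5r1 and shares several genes with the Cdk5 substrate list, so the counts of these lists are not independent. The genes of lowest adjusted p on these lists were chosen after their values were seen. Gphn, the gene of the inhibitory scaffold gephyrin, had 970 ± 212, 714 ± 18.4 and 696 ± 65.5 CPM (SD, n = 3). Its wild-type libraries were scattered, from 809 to 1210 CPM. The log2 fold changes of Gphn were -0.44 and -0.48 for scrambled peptide and Cdk5i against wild type (edgeR adjusted p = 0.321 and 0.243). Mapt, the tau gene and on both lists, had 0.19 and 0.21 (edgeR adjusted p = 0.330 and 0.251). Dlg4, a postsynaptic scaffold gene also on both lists, had 0.20 and 0.33 (edgeR adjusted p = 0.431 and 0.186). Both P301S groups also carry a tau transgene, and the part of its reads in the Mapt counts was not tested. The densest genes per kb of the calpain substrate list were Camk2a, Sptan1 and Atp2b1. Sptan1, the spectrin gene whose protein is a usual readout of calpain cleavage, had 566 ± 35.2, 563 ± 13.5 and 545 ± 27.5 CPM (SD, n = 3). The kinase gene Camk2a had 480 ± 4.04, 554 ± 16.7 and 567 ± 64.5 CPM, a log2 fold change of 0.20 for scrambled peptide against wild type (edgeR adjusted p = 0.419), and the calcium pump gene Atp2b1 697 ± 41.7, 728 ± 88.9 and 765 ± 97.3 CPM.

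Likeness between genes over the 9 libraries is given as a description, since the libraries share their groups, depth and scaling. Among 9601 genes with a mean count of at least 100 and a name other than a provisional one, Cdk5 was most like Slc48a1 (Pearson's r = 0.98), Snrnp70 (0.98) and Gtf2ird2 (0.96). The genes most like Cdk5r1 were Nucb1 (r = 0.91), Klhl9 (0.90) and Khnyn (0.89). These are the highest of 9601 genes over 9 libraries, and how high unlinked genes would reach was not tested. Cdk5 and Cdk5r1, kinase and activator, had an r of 0.40 with each other, and Cdk5 had its highest r within the set with Capn2 (0.52).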

How the data were processed

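RNA of sorted nuclei was extracted with a kit for fixed tissue and made into stranded total RNA libraries for very small input, with paired reads of 40 bases, per the labels' protocols. The deposited values are raw counts per gene, which the authors made with featureCounts 2.0.0 over whole gene spans, for read pairs and reversed strand, on Ensembl release 102 of GRCm38, per the file headers. The headers set no option that keeps fragments lying in several genes. The submitters' processing notes also name STAR 2.7.9a and DESeq2 1.36.0, with no role given.

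IDs were paired with symbols from a reference table (55141 of 55401). Genes passing edgeR's filterByExpr by group (16046) were tested with edgeR 4.0.16 in R 4.3.3: TMM factors, robust quasi-likelihood fit, 3 group means over 9 libraries (6 residual degrees of freedom), and Benjamini-Hochberg adjustment over all genes at 0.05. CPM values use TMM-scaled totals, standard errors come from the F statistic, and intervals span 95%. Ratios used exact permutation tests. A run on counts simulated from the same fit, with 200 altered genes, checked only the working of the code. It cannot show how well the model suits these libraries. Genes named are the set itself, the 3 densest genes of each list, any listed gene that passed, models overlapping the set, and the 3 genes most like Cdk5 and Cdk5r1; others are marked as chosen after their values were seen. Members, lists and tests were chosen with earlier results of these data known. Alternatives were DESeq2 1.42.0, limma 3.58.1 voom with quality weights, DESeq2 size factors, other count filters, fewer groups, a replicate block, non-robust dispersion and leaving out each library. No pair of replicates agreed within counting noise (chi-square 8.96 to 27.0 per gene).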

Additional observations from a re-analysis of the deposited data

How the results depend on the processing

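Under 17 alternatives for each comparison, and with both P301S groups pooled, 0 members passed, and the lowest adjusted p of a member was 0.239. Of the 24 member log2 fold changes 14 kept their sign. The other 10 lay near 0 and changed sign when a library was left out. For scrambled peptide against wild type Cdk5r1 then ranged from -0.031 to 0.016 and Cast from -0.079 to 0.12 (-0.0053 with both P301S groups pooled). For Cdk5i against scrambled peptide Cdk5rap2 ranged from -0.060 to 0.025, Cdk5rap3 from -0.046 to 0.15 (-4.43e-05 with limma voom), Cables1 from -0.020 to 0.046, Capn2 from -0.092 to 0.034 and Cast from -0.17 to 0.015. For Cdk5i against wild type Cdk5 ranged from -0.014 to 0.16, Capn2 from -0.0062 to 0.13 and Cast from -0.18 to 0.013. The log2 ratio of Cdk5r1 to Cdk5 ranged from -0.034 to 0.16 for Cdk5i against scrambled peptide, below 0 without scrambled replicate 2 or Cdk5i replicate 1. For Cdk5i against scrambled peptide Cdk5 ranged from -0.29 to -0.069 and Capn1 from -0.12 to -0.0026, and for Cdk5i against wild type Capn1 from 0.087 to 0.27, with no change of sign. The ratio of Cast to the calpain genes ranged from -0.099 to -0.0040 for Cdk5i against scrambled peptide, from -0.21 to -0.054 for Cdk5i against wild type and from -0.15 to 0.0039 for scrambled peptide against wild type.

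Counts over all genes moved more. For scrambled peptide against wild type 13 genes became 72 with DESeq2, 318 with no filter, 6 with at least 50 counts in 3 libraries and 6 with non-robust dispersion. For Cdk5i against scrambled peptide 2 genes became 26 with DESeq2 and 159 with no filter. For Cdk5i against wild type 12 genes became 112 with DESeq2, 4 with limma voom, 408 with no filter, 6 with at least 50 counts in 3 libraries, 2 with only the 2 groups compared and 3 with non-robust dispersion. Leaving out a library gave 2 to 17, 2 to 18 and 2 to 14 genes in that order of comparisons. The causes were not tested.

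Same-numbered libraries had correlations of deviations from their group means of -0.31 to 0.17 over 9 pairs, 1 of them over 0.1. A pair with unlike numbers reached 0.28. With 3 libraries per group these values cannot tell whether the numbers pair samples. With the replicate number as a block 2, 2 and 2 genes and 0 members passed. The exact sign-flip p of the Cdk5r1 to Cdk5 ratio was 0.25, 0.75 and 0.25 with 3 pairs, which cannot go below 0.25. The members with the fewest counts, Cdk5rap3, Capn1 and Cast, had 94 to 220 per library. The part of depth in the width of their intervals was not tested.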
